A study of Homo sapiens with 4 samples.

Results

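The MYC and MXD network is a family of transcription factors that share 1 dimerisation partner, and its transcripts were examined on 4 expression arrays of CAPAN2, an established line of human pancreatic ductal adenocarcinoma cells. The members were fixed by name as MYC, MYCL, MYCN, MAX, MXD1, MXD3, MXD4, MNT and MGA, 9 genes in all. A probe set, the group of array probes summarised to 1 value, counted as theirs where the platform annotation gave it exactly 1 symbol. By that rule 8 of the 9 members had 28 probe sets among the 19775 genes and 41091 probe sets with a single symbol. MXD4 had no probe set of its own, because its 3 probe sets are annotated to the microRNA gene MIR4800 as well. The brightest probe set, by its mean over the 4 arrays, stands for a gene below, and values are log2 signals as deposited.

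On 2 arrays the cells had been transduced with lentivirus carrying shRNAs against LLGL1, a cell polarity protein of the LGL family, and on the other 2 with control lentivirus. Both groups were of the same line and were grown in medium containing 10% serum, and hexadimethrine bromide at 8 µg/ml was added for transduction. The sample titles call the groups siLLGL1 and NC, while the other labels name shRNA lentivirus, which is followed here. The labels call the 2 arrays of a group biological replicates but name no separate cultures, and do not say how many shRNAs a sample received, so p-values measure only the spread between these arrays. The question was how loss of LLGL1 changes gene expression in these cells.

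The proteins of the network bind DNA as pairs through a helix-loop-helix and leucine zipper region. MYC, MYCL and MYCN need MAX to bind the E-box, the palindrome CACGTG, and recruit activating cofactors there to growth, metabolism and cell cycle genes. MXD proteins and MNT compete for MAX, bind the same E-box and recruit the SIN3 and histone deacetylase corepressor. MYC is a known driver of growth in pancreatic ductal cancer.

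Before the members, the targeted transcript did not bear out the labels. LLGL1 read 6.73 and 6.71 on the arrays labelled LLGL1 shRNA, against 6.83 and 6.86 on the control arrays, in the brightest of its probe sets (log2 difference -0.12, limma adjusted p = 0.22), and its dimmer ones differed by 0.09 and 0.06. Directions below are therefore between arrays as labelled. The arrays had median log2 signals of 2.95 to 2.98 and correlated at 0.997 within each group and at 0.993 to 0.994 between groups, across probe sets that are not independent replicates. Poly-A spikes, which are bacterial transcripts mixed into the RNA ahead of labelling, read lower on the arrays labelled LLGL1 shRNA in 24 of 24 probe sets (mean log2 difference -1.14), and so were 3 of 3 probe sets for 18S ribosomal RNA (-1.97). Hybridisation controls were lower too, in 18 of 18 probe sets, by less (mean log2 difference -0.12). The part of any of these in the changes below was not tested.

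MYC was the member whose change passed the test. Its transcript was 1.59-fold higher on the arrays labelled LLGL1 shRNA, while MXD1, a MYC antagonist, read lower in its 2 brighter probe sets without passing. Across the network 1 of 8 members rose and 0 fell at a limma adjusted p below 0.05, beside 6.28% of all genes tested (5 of the 8, beside 28.1% of all genes, had an unadjusted p below 0.05, and 0 passed in the fit over all probe sets). All 8 gene values had arrays that did not overlap between the groups, 4 higher and 4 lower, where 52.4% of all genes did so (27.7% higher and 24.7% lower). The median log2 difference of the 8 was -0.02, beside 0.01 for all genes tested.

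**Figure D1:**
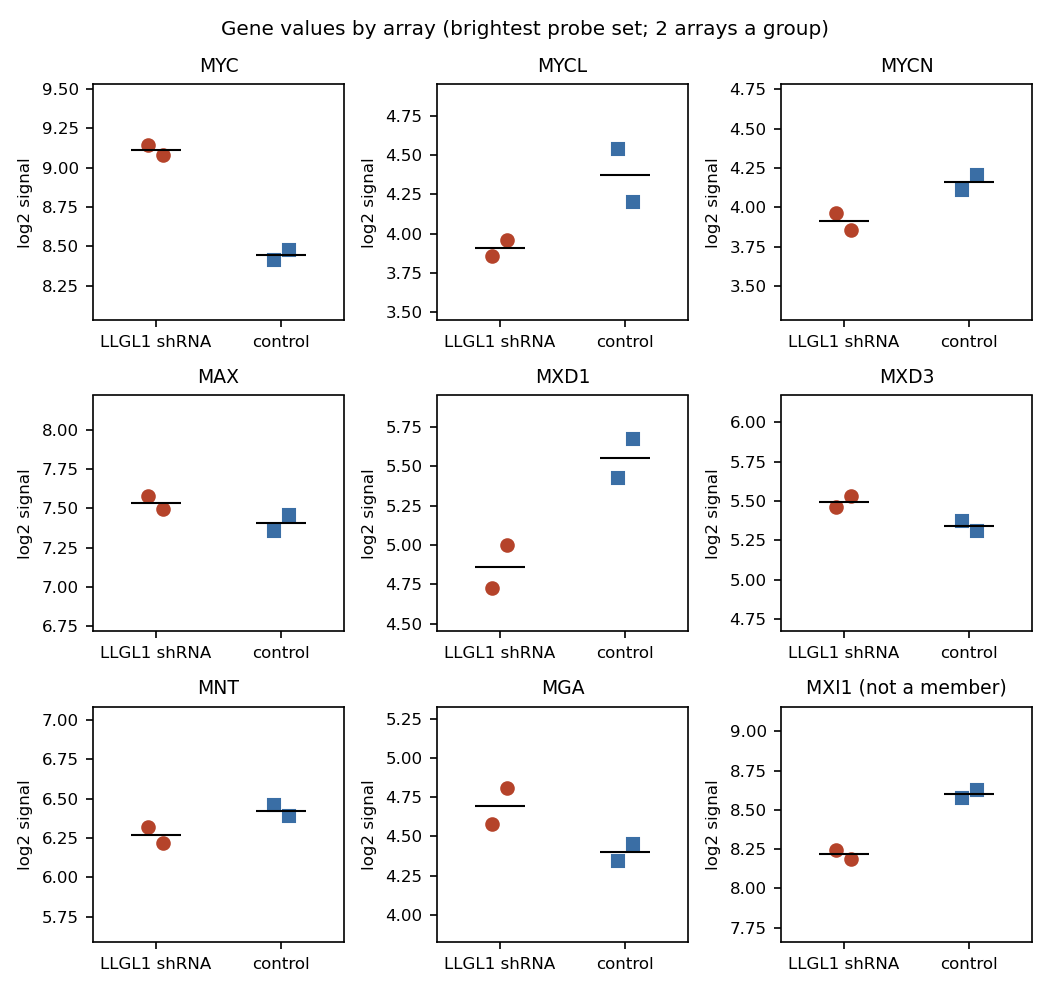
Log2 signal of the brightest probe set of each measured member, and of MXI1, on the 2 arrays labelled LLGL1 shRNA (red circles, left) and the 2 control arrays (blue squares, right). Horizontal lines are group means, and every panel spans the same range of log2 signal. MYC read 9.15 and 9.08 against 8.41 and 8.48 on the control arrays, and MXD1 read 4.73 and 4.998 against 5.43 and 5.68.

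MYC, the founding member and a driver of cell growth, read 9.15 and 9.08 on the arrays labelled LLGL1 shRNA, against 8.41 and 8.48 on the control arrays. Both LLGL1 shRNA arrays were above both control arrays, and the arrays of a group lay close together. The means were 9.11 ± 0.0455 and 8.44 ± 0.0479 (log2, SD, n = 2 each), a log2 change of 0.67 (SE 0.0597, 95% interval 0.50 to 0.84, limma adjusted p = 0.0318). MYC has 1 single-symbol probe set, so no other probe set of the array bears on this rise. The call was lost in the fit over all 54613 probe sets (limma adjusted p = 0.0664, in a range of 0.000138 to 0.151 over its alternatives that keep all 4 arrays). In that test 0 of the 28 member probe sets passed, beside 0.125% of all probe sets, and 8 of the 28 had an unadjusted p below 0.05.

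The other MYC paralogs read low and did not pass. MYCL, first found amplified in small cell lung cancer, read 3.86 and 3.96 on the arrays labelled LLGL1 shRNA, against 4.54 and 4.20 on the control arrays (log2 difference -0.46, SE 0.133, limma adjusted p = 0.126). Without control replicate 1 the difference was -0.29. The groups did not overlap, but the 2 control arrays stood further apart than those labelled LLGL1 shRNA. Its dimmer probe set overlapped between the groups and differed by -0.02.

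MYCN, best known from neuroblastoma, read 3.96 and 3.86 on the arrays labelled LLGL1 shRNA, against 4.11 and 4.20 on the control arrays (log2 difference -0.25, SE 0.0697, limma adjusted p = 0.121). It has 10 probe sets, of which 4 were lower and 6 higher by sign, with differences from -0.25 to 0.21, and in 7 of them the arrays overlapped. As the mean of its 10 probe sets MYCN differed by -0.000385. The lower reading of its brightest probe set was not seen in the next brightest ones, at 0.12 and 0.02. The rest, the one at 0.21 among them, read below the median of every array and can hardly show whether it is shared.

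MAX, the shared dimerisation partner of the network, read 7.58 and 7.49 on the arrays labelled LLGL1 shRNA, against 7.36 and 7.46 on the control arrays. The log2 difference was 0.13 (SE 0.0687, 95% interval -0.06 to 0.32, limma adjusted p = 0.335), and without control replicate 1 it was 0.0752, or 0.0845 without LLGL1 shRNA replicate 1. All 5 MAX probe sets were higher by sign on the arrays labelled LLGL1 shRNA, by 0.13 to 0.31, and in all 5 the groups did not overlap, where 45% of all probe sets do not. None of the 5 passed, and the mean of the 5 did not pass either (0.22, limma adjusted p = 0.0801). The MAX probe sets share transcripts and arrays, so they are not independent measurements.

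Among the antagonists, MXD1 differed most. MXD1 is induced when cells leave the cycle and differentiate, and it represses MYC targets through the SIN3 corepressor. It read 4.73 and 4.998 on the arrays labelled LLGL1 shRNA, against 5.43 and 5.68 on the control arrays, with no overlap. The means were 4.86 ± 0.192 and 5.55 ± 0.176 (log2, SD, n = 2 each), a log2 difference of -0.69 (SE 0.14, 95% interval -1.08 to -0.30) that missed the threshold (limma adjusted p = 0.0717).

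The next brightest MXD1 probe set showed a larger difference with a smaller spread. It read 3.91 and 3.79 on the arrays labelled LLGL1 shRNA, against 4.71 and 4.84 on the control arrays (log2 difference -0.92, SE 0.0843, limma adjusted p = 0.0664 over all probe sets). The dimmest read 2.18 on both arrays labelled LLGL1 shRNA, against 2.31 and 2.14 on the control arrays, all below the median of every array. As the mean of its 3 probe sets MXD1 differed by -0.55 and passed (limma adjusted p = 0.0277). Its brightest probe set passed under 5 further alternatives, with adjusted p from 0.00152 to 0.0464, among them median centring and cyclic loess. In those settings 9.51% to 47% of the genes tested passed, and the smallest adjusted p came where 47% did. With the replicate block this probe set did not pass (limma adjusted p = 0.151). Without any 1 array its difference was -0.83 to -0.55.

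MXD3, an antagonist of the same family that is expressed in proliferating cells, read 5.46 and 5.53 on the arrays labelled LLGL1 shRNA, against 5.37 and 5.31 on the control arrays. Its single probe set differed by 0.16 (SE 0.0598, limma adjusted p = 0.199), opposite in sign to MXD1. The difference between MXD1 and MXD3 was not tested.

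MNT, a broadly expressed antagonist that uses the same corepressor, read 6.32 and 6.22 on the arrays labelled LLGL1 shRNA, against 6.46 and 6.39 on the control arrays (log2 difference -0.16, SE 0.0658, limma adjusted p = 0.227). Its dimmer probe set overlapped between the groups and differed by 0.16. The mean of the pair was 0.0016, so the direction of MNT flips with the choice of probe set.

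MGA, which carries a T-box domain beside its helix-loop-helix region and anchors a polycomb complex with E2F6, read 4.58 and 4.81 on the arrays labelled LLGL1 shRNA, against 4.35 and 4.45 on the control arrays. The log2 difference was 0.29 (SE 0.103, limma adjusted p = 0.172), and the next brightest of its 4 probe sets differed by 0.49 without passing (limma adjusted p = 0.124). Without LLGL1 shRNA replicate 2 the difference in the brightest was 0.18. The remaining MGA probe sets differed by -0.02 and -0.11.

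**Figure D2:**
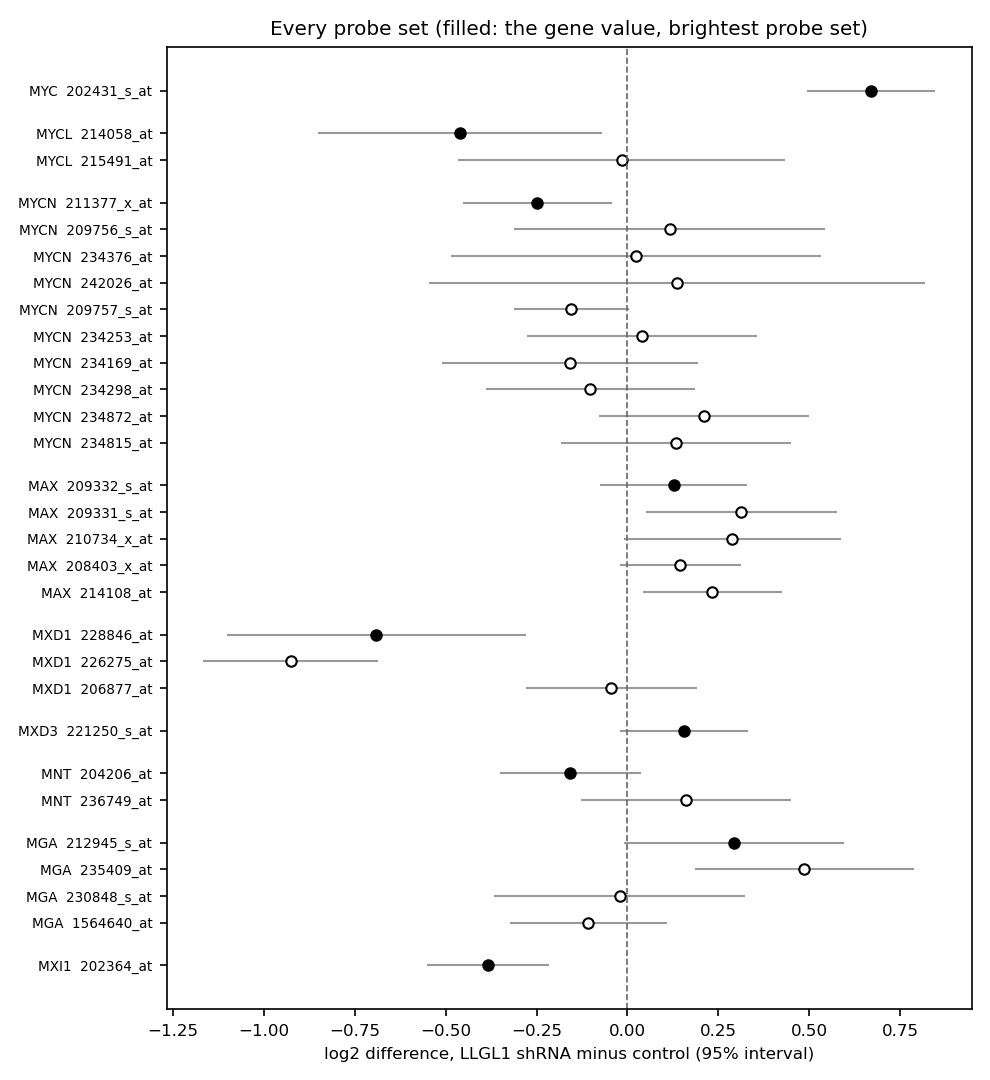
Log2 difference, LLGL1 shRNA minus control, of each of the 28 single-symbol probe sets of the members and of the MXI1 probe set, with its 95% interval from the fit over all probe sets. Filled points are the brightest probe set of a gene. All 5 MAX probe sets lie right of 0 and the 2 brighter MXD1 probe sets lie left of it with intervals that leave out 0, while the 10 MYCN probe sets lie on both sides.

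MXI1, the remaining MXD family gene, was no member of the list but was measured in the same fit with the MLX branch, a parallel set of factors that responds to glucose. MXI1, also called MXD2, read 8.25 and 8.19 on the arrays labelled LLGL1 shRNA, against 8.58 and 8.63 on the control arrays. It fell by 0.38 on the log2 scale (SE 0.0566, limma adjusted p = 0.0466), a call that was lost in the fit over all probe sets (limma adjusted p = 0.0853, in a range of 0.00126 to 0.162 over alternatives with all 4 arrays). MLX, the partner of that branch, differed by -0.0086 (95% interval -0.24 to 0.22), MLXIP by 0.07 and MLXIPL, the carbohydrate response factor, by 0.25 (limma adjusted p = 0.146). Of these 4 genes 1 fell and 0 rose, where 3.07% of all genes tested fell and 3.21% rose.

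Signals of different probe sets cannot be set against each other as levels, but their difference can be followed from array to array. MYC minus MXD1 was 4.42 and 4.08 on the arrays labelled LLGL1 shRNA, against 2.98 and 2.80 on the control arrays, a shift of 1.36 on the log2 scale. MYC minus MXI1 was 0.90 and 0.89 on the arrays labelled LLGL1 shRNA, against -0.16 and -0.15 on the control arrays, a shift of 1.05. MYC minus MNT shifted by 0.83 and MYC minus MXD3, the antagonist that read higher, by 0.51. These shifts follow from the gene values above and were given no test.

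**Figure D3:**
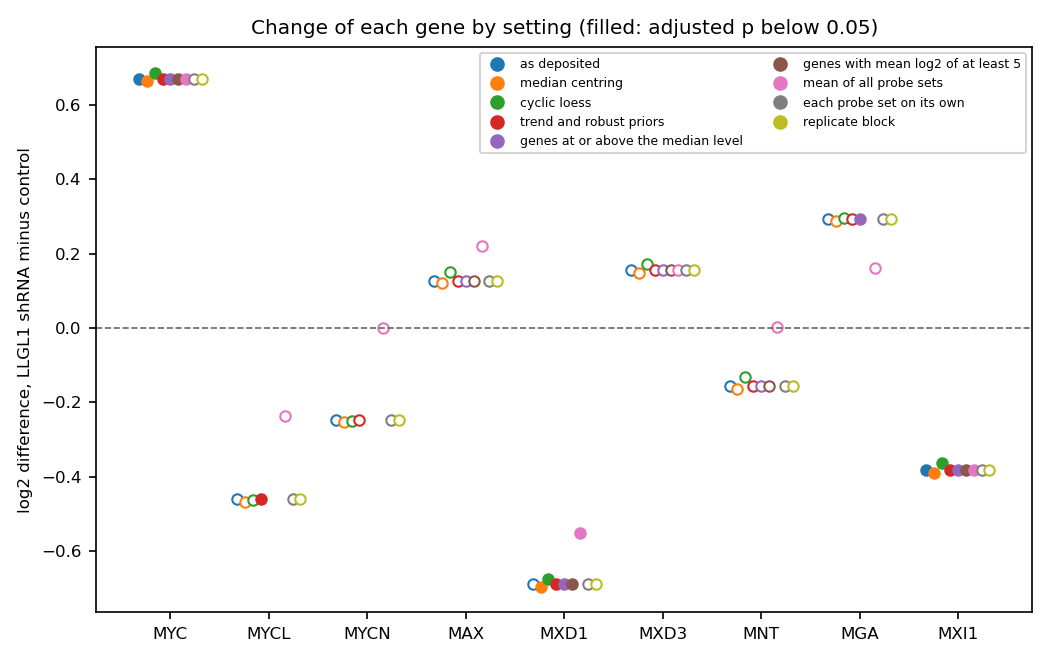
Log2 difference, LLGL1 shRNA minus control, of each measured member and of MXI1 under the main setting and 8 alternatives that keep all 4 arrays, with filled points where the limma adjusted p was below 0.05. Genes below a level filter have no point under it. MYC stays between 0.66 and 0.69 and MXD1 between -0.70 and -0.55, and MYCN and MNT reach about 0 with the mean of all probe sets.

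Genes listed as activated by MYC were higher together on the arrays labelled LLGL1 shRNA. Of 43 measured genes from a list of textbook MYC-activated targets, 15 rose and 0 fell (34.9% rose, beside 3.21% of all genes tested), and their median log2 difference was 0.32, beside 0.01 for all genes. By sign 40 were higher and 3 lower, and in 37 both arrays labelled LLGL1 shRNA were above both control arrays (86%, beside the 27.7% of all genes). Signal level was not matched in these shares, as only 2 of the 43 read below the median of every array. Among genes at or above the median level 30 of 40 listed genes rose and 1 fell. In that setting 40.3% of all genes kept passed in either direction. SRM, CCND2 and MCM5 rose most. The list was written with earlier results of these data known, and some of its genes, MCM5 and NME1 among them, were known to have risen.

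SRM, the spermidine synthase, read 8.15 and 7.98 on the arrays labelled LLGL1 shRNA, against 6.91 and 7.01 on the control arrays, 2.15-fold higher (log2 1.10, SE 0.0892, limma adjusted p = 0.0296). It is a single probe set whose groups lie far apart relative to their spread. CCND2, the D-type cyclin that pairs with CDK4, read 5.93 on both arrays labelled LLGL1 shRNA, against 4.91 and 4.94 on the control arrays (log2 1.00, SE 0.051, limma adjusted p = 0.0214). Another CCND2 probe set differed by 0.99 and the remaining, dimmer ones by -0.11 and -0.01. MCM5, a subunit of the replicative helicase, read 7.22 and 7.08 on the arrays labelled LLGL1 shRNA, against 6.22 and 6.10 on the control arrays (log2 0.99, SE 0.0807, limma adjusted p = 0.0296).

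The other 12 that rose included enzymes of nucleotide and polyamine synthesis (CAD, ODC1, NME1), the cell cycle genes CDK4, E2F1, E2F2 and MCM4, the translation regulator EIF4EBP1, the chaperonin subunit HSPE1, the peroxiredoxin PRDX4, the glutamine transporter SLC1A5 and the mitochondrial transcription factor TFAM. Their log2 changes ran from 0.37 to 0.73. Of the 8 cell cycle genes in the list 6 rose, and of the other 35 genes 9 rose, with a median of 0.28. With a gene's probe sets averaged, 12 of the 15 still rose, and E2F1, E2F2 and TFAM did not pass. HK2, a hexokinase also induced by hypoxia, was the lowest of the list, at 7.56 and 7.55 on the arrays labelled LLGL1 shRNA, against 7.87 and 7.95 on the control arrays (log2 difference -0.35, limma adjusted p = 0.0525), and it passed as lower under 5 alternatives.

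Of 19 measured genes from a list of textbook MYC-repressed targets, 0 rose and 1 fell (beside 3.07% of all genes), with a median of -0.10. By sign 8 were higher and 11 lower. The groups did not overlap in 7 that were higher (36.8%, beside 27.7% of all genes) and in 9 that were lower. TIMP1, the highest of the list, differed by 0.33 (limma adjusted p = 0.068), and CEBPD by 0.26 (limma adjusted p = 0.0637). The one that fell was NDRG1, named as an N-myc downstream-regulated gene and also induced by hypoxia, whose fall was known when the list was written. NDRG1 read 7.25 and 7.26 on the arrays labelled LLGL1 shRNA, against 8.81 and 8.76 on the control arrays (log2 -1.53, SE 0.053, limma adjusted p = 0.0114). With trend and robust priors, where 19.9% of all genes passed, 2 of the 19 rose and 9 fell, CDKN1B, GADD45A, TXNIP and KLF4 among those that fell. The counts were also 2 and 9 under both level filters, where 40.3% and 47% of the genes kept passed. CDKN1A, the p21 inhibitor, differed by 0.08.

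**Figure D4:**
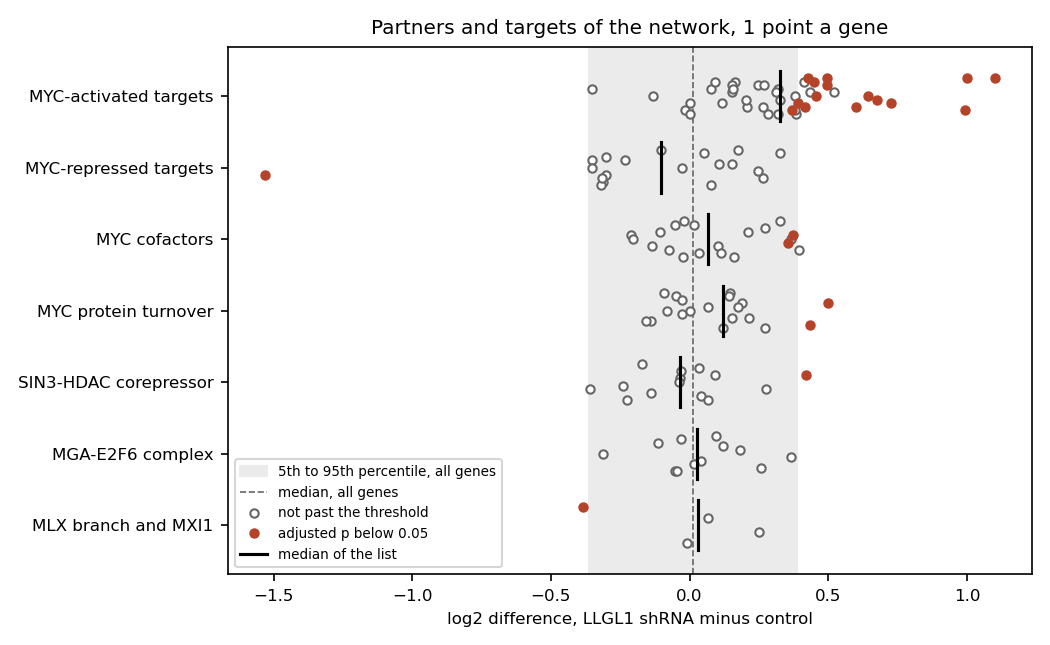
Log2 difference, LLGL1 shRNA minus control, of the measured genes of 7 lists of partners and targets, 1 point a gene. Red points passed the limma test and black bars are list medians. The grey band spans the 5th to the 95th percentile of all genes, from -0.36 to 0.39, and the dashed line is their median. The activated targets lie mostly to the right, with a median of 0.32.

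Cofactors and regulators of the network were read in 4 lists of 64 measured genes, of which 5 rose and 0 fell. These are 7.81% that rose, beside 3.21% of all genes tested, and also 7.81% that passed in either direction, beside 6.28%. Signal level was not matched in this comparison, as 0 of these genes read below the median of every array. Of 20 measured MYC cofactors 2 rose and 0 fell (10% rose). RUVBL2, a helicase of the TIP60 and INO80 chromatin complexes, read 9.19 and 9.15 on the arrays labelled LLGL1 shRNA, against 8.76 and 8.83 on the control arrays (log2 0.37, limma adjusted p = 0.0495). It did not pass as the mean of its probe sets (0.27, limma adjusted p = 0.148). Its next brightest probe set differed by 0.46. The dimmest, with a mean log2 of 1.80, below the array medians of 2.95 to 2.98, differed by -0.03. KAT2A, the GCN5 acetyltransferase, read 6.49 and 6.43 on the arrays labelled LLGL1 shRNA, against 6.11 on both control arrays (log2 0.35, limma adjusted p = 0.0479).

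Of 19 measured regulators of MYC protein turnover, 2 rose and 0 fell (10.5% rose, beside the 3.21% of all genes, where 6.28% passed in either direction). SKP2, an F-box protein of a ubiquitin ligase that acts on MYC and is itself cell cycle regulated, read 8.22 and 8.19 on the arrays labelled LLGL1 shRNA, against 7.71 and 7.70 on the control arrays (log2 0.50, limma adjusted p = 0.0334). As the mean of its 3 probe sets it differed by 0.31 and missed the threshold (limma adjusted p = 0.0539). Its next brightest probe set differed by 0.44. The dimmest, with a mean log2 of 1.84, below the array medians of 2.95 to 2.98, differed by -0.01. PLK1, a mitotic kinase, rose by 0.43 (limma adjusted p = 0.0484).

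Of 14 measured subunits of the SIN3 and histone deacetylase corepressor, through which MXD proteins and MNT act, 1 rose and 0 fell. That is 7.14%, beside 3.21% of all genes that rose and 6.28% that passed in either direction. The riser was BRMS1, at 5.89 and 5.91 on the arrays labelled LLGL1 shRNA, against 5.48 on both control arrays (log2 0.42, limma adjusted p = 0.0375). Of 12 measured genes of the MGA and E2F6 complex, 0 passed in limma at the adjusted threshold, beside 6.28% of all genes. Medians of these 4 lists were 0.07 for cofactors, 0.12 for turnover, -0.03 for the corepressor and 0.03 for the MGA complex, beside 0.01 for all genes. Among genes at or above the median level 40.3% of all genes kept passed in either direction. Calls in that setting were 8 for cofactors, 3 for turnover, 6 for the corepressor and 4 for the MGA complex.

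Promoter windows of the target list were read because the E-box is the known site of the network's proteins. Sequences are from RefSeq (GRCh38.p14), 250 bases before to 50 bases after an annotated start, on the gene's strand and 5′ to 3′. The motif searched was CACGTG, which reads the same on both strands and overlaps no other motif searched. It occurred in 7.26% of 35116 such windows, and 10.9% of the 15384 genes tested here that have a window held it in at least 1. Of the 34 measured activated targets with a window 19 held it (55.9%): 7 of the 11 that rose and 12 of the 23 that were not called. HSPE1, which rose, and HSPD1, which was not called, have overlapping windows on opposite strands. Their match is the same site, counted under both genes. The list was drawn from known MYC targets, so its share of E-boxes is no finding of these arrays. Over all genes, 13.7% of the 525 that rose, 10.1% of the 487 that fell and 10.8% of the 14372 not called held a match, which was given no test.

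The windows below show how the motif sits in 3 targets that rose and in MNT, the measured member whose window holds it, with the E-boxes in capitals. They lie on the minus strand at chr12:57752261-57752560 for CDK4, chr2:10447963-10448262 for ODC1, chr1:11059969-11060268 for SRM and chr17:2401011-2401310 for MNT. CDK4 holds 3 matches, ODC1 2, and SRM and MNT 1 each. These genes were chosen for display after their values were seen.
CDK4: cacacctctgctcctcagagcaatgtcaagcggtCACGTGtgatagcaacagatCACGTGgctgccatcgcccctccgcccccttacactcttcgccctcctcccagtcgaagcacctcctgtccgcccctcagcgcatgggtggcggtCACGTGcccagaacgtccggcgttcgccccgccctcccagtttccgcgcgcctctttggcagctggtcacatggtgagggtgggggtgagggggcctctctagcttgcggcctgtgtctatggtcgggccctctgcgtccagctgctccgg
ODC1: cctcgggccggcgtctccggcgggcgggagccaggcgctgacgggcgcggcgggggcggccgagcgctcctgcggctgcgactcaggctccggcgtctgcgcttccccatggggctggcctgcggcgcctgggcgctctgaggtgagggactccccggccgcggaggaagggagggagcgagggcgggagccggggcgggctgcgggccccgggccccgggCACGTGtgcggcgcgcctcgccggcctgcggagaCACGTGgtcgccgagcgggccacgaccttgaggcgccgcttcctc
SRM: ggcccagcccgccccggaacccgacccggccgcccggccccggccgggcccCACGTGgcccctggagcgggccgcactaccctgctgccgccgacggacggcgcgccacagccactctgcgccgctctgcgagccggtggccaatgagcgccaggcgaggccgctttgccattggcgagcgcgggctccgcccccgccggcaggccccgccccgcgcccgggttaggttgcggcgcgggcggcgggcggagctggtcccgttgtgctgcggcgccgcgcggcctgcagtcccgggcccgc
MNT: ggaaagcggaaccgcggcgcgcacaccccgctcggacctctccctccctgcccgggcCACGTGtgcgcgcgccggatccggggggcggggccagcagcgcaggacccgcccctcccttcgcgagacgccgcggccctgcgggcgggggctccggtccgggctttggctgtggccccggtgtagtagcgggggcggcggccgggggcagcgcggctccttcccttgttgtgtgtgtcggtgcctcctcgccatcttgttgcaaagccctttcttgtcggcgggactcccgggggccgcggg

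CDK4, the kinase that starts the passage through G1, read 8.47 and 8.38 on the arrays labelled LLGL1 shRNA, against 7.79 and 7.86 on the control arrays (log2 0.60, limma adjusted p = 0.0347). ODC1, the ornithine decarboxylase that feeds SRM, read 9.80 and 9.74 on the arrays labelled LLGL1 shRNA, against 9.23 and 9.31 on the control arrays (log2 0.50, limma adjusted p = 0.0381). The 2 polyamine enzymes printed here thus both rose, and MNT with its match did not pass. No window of MYC was analysed here. Windows of MXD1, MYCL, MYCN, MAX, MXD3 and MGA held no match, which says only that these letters are not in those windows.

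The other 4 targets that rose and hold a match are shown by the E-box and its flanking bases, to set the bases next to the core side by side. They lie at chr17:51153583-51153608 on the plus strand for NME1, chr19:46787328-46787353 on the minus strand for SLC1A5, chrX:23667400-23667425 on the plus strand for PRDX4 and chr2:197500347-197500372 on the plus strand for HSPE1.
NME1: tgctgcgaacCACGTGggtcccgggc
SLC1A5: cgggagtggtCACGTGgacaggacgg
PRDX4: ggccggcgccCACGTGgcggggcggg
HSPE1: gtgattttttCACGTGtcgccagggc

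NME1, a nucleoside diphosphate kinase, read 10.48 and 10.35 on the arrays labelled LLGL1 shRNA, against 9.73 and 9.76 on the control arrays (log2 0.67, limma adjusted p = 0.0331), and of these 4 it changed most. SLC1A5 rose by 0.39, PRDX4 by 0.37 and HSPE1 by 0.43 on the log2 scale. HK2, which was lower, holds 2 matches in its own window.

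**Figure D5:**
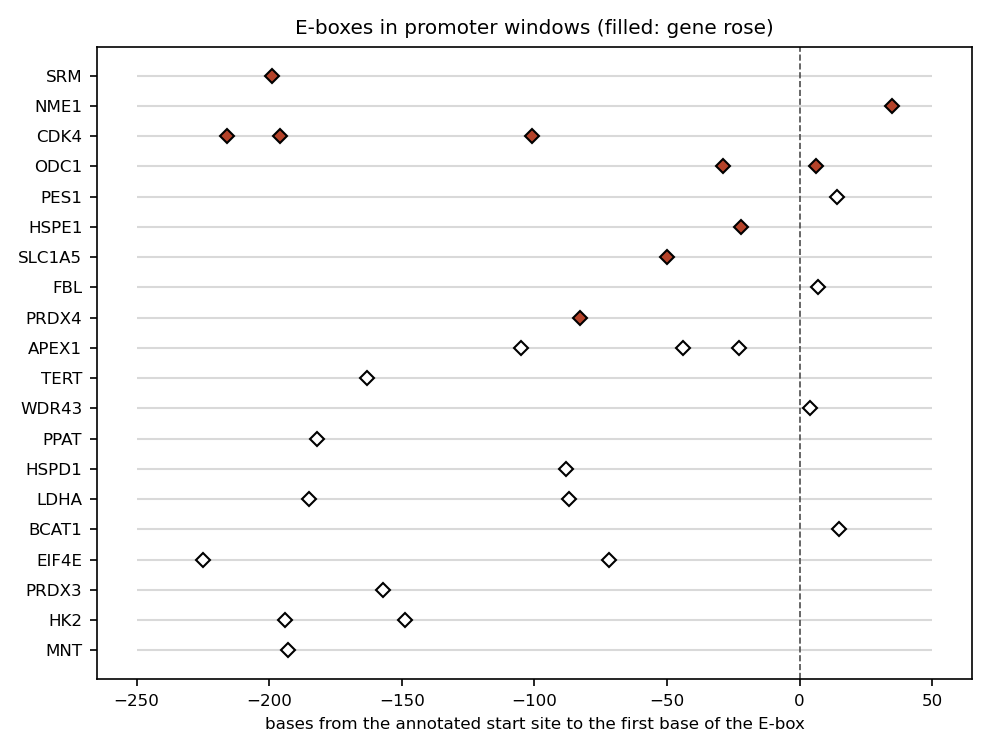
Position of each CACGTG match, in bases from the annotated start site, in the promoter windows of the 19 MYC-activated targets that hold one and of MNT. Targets run from the largest log2 change at the top to the lowest above MNT at the foot, and filled diamonds mark those that rose. Matches lie on both sides of the start in genes that rose, at -199 for SRM and at 35 for NME1.

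Across the 4 arrays, the pattern of MYC was matched most closely by UHRF1, ATP2A2 and UTP4. Among 1829 other genes with a mean log2 signal within 1 of MYC's, their root mean square differences from MYC were 0.0155, 0.0168 and 0.0262 after each gene's mean was subtracted. UHRF1, a maintenance factor of DNA methylation, read 8.41 and 8.36 on the arrays labelled LLGL1 shRNA, against 7.70 and 7.73 on the control arrays. ATP2A2, a calcium pump of the endoplasmic reticulum, read 8.96 and 8.91 on the arrays labelled LLGL1 shRNA, against 8.19 and 8.29 on the control arrays. UTP4, a factor of ribosomal RNA processing, read 8.16 and 8.13 on the arrays labelled LLGL1 shRNA, against 7.49 and 7.50 on the control arrays. With 2 arrays a group this is a description of the size of the change.

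Markers of the labelled cell type and of others were read on the same arrays. Of the 9 epithelial genes 1 (CEACAM6) read below the median of every array. KRT18, the brightest, read 12.6 on both arrays labelled LLGL1 shRNA, against 12.7 and 12.8 on the control arrays. KRT7 read 5.998 and 5.82 on the arrays labelled LLGL1 shRNA, against 4.28 and 4.302 on the control arrays, and was the 1 gene of the list that rose, while 2 fell (KRT19 and CDH1). Over all genes tested 3.21% rose and 3.07% fell. With its 4 probe sets averaged KRT7 differed by 0.44 and still passed (limma adjusted p = 0.0359). Averaged likewise, KRT19 passed (-0.48, limma adjusted p = 0.0333) and CDH1 did not (-0.55, limma adjusted p = 0.0643). The summed linear signal of this list was 13350 to 13480 on the arrays labelled LLGL1 shRNA and 15670 to 15890 on the control arrays, and 76% of the difference in this sum came from KRT19 (log2 -0.61) and KRT18 (log2 difference -0.17). KRT8 differed by -0.04 and MUC1 by 0.02. Of 8 fibroblast, 7 immune and 6 endothelial markers 0 passed in limma, beside 6.28% of all genes tested. Their summed signals on the arrays labelled LLGL1 shRNA, against the control arrays, were 82.1 to 95.2 against 83.5 to 84.2 for fibroblast, 51.7 to 53.9 against 51.4 to 51.7 for immune and 49.4 to 53.2 against 49.3 to 50.7 for endothelial markers. Below the median of every array were 4 of the 8 fibroblast, 4 of the 7 immune and 2 of the 6 endothelial markers. The highest single log2 readings of these lists were 5.50, 4.44 and 4.09. PTPRC, the leukocyte marker, was among the dim ones and read 1.06 and 1.46 on the arrays labelled LLGL1 shRNA, against 1.20 and 1.44 on the control arrays. In such bulk samples fewer cells of a kind and less RNA per cell cannot be told apart, and the part of these marker differences in the results above was not tested.

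The authors' deposited table of changed probe sets, which holds 294 with a ratio of at least 2 in either direction, lists 0 probe sets of the members, and none of their 28 differed that much here. Of the target lists it holds SRM at a ratio of 2.15, NDRG1 at 0.346 and a BCAT1 probe set at 2.13 in the authors' deposited table, while the brightest BCAT1 probe set differed by 0.08 in the fit here. That brightest probe set read 2.46 and 2.42 on the arrays labelled LLGL1 shRNA, against 2.29 and 2.44 on the control arrays. All these readings lie below the median of every array.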

How the data were processed

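Total RNA, 100 ng a sample, was labelled as biotinylated cRNA, per the labels' protocols. The authors deposited log2 signals of 54675 probe sets on 4 arrays, made with RMA and Partek 6.6 as the submitters' processing notes name them, per the labels. Neither a background step nor a build is named there. A second deposited table gives, per the file headers, the authors' p-value, ratio, signed fold change and F score. Its log2 ratios matched the value table within 1.68e-05, which fixed scale and direction.

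The platform annotation gave 41091 probe sets 1 symbol, 1801 several and 11721 none; 62 controls were set aside. The brightest probe set stood for each of 19775 genes. The tool was limma 3.58.1 (R 4.3.3), with lmFit followed by eBayes, two-sided, with Benjamini-Hochberg adjustment over all genes and a threshold of 0.05 (2 residual and 1.94 prior degrees of freedom). Every probe set was also tested in a fit over 54613. Where both arrays of a group hold equal values, their spread is 0 before moderation. The fit was tested on simulated data.

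The members and lists were chosen with earlier results of these data known. Named genes are all members, LLGL1, MXI1 and the MLX branch, the 3 largest changes among each list's calls (all where 5 or fewer passed) and the 3 genes closest to MYC; others, such as those named for their calls or promoter, were chosen after their values were seen. Genes of the lists with no single-symbol probe set were not analysed here. Alternatives covered scaling, moderation, level filters, probe set choice, a replicate block, each array left out and stricter thresholds. No genome was used here beyond RefSeq promoter windows.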

Additional observations from a re-analysis of the deposited data

How the results depend on the processing

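The number of arrays limits every call. MYC kept its direction under all 13 alternatives, at 0.67 as deposited and 0.64 to 0.70 without any 1 array. It lost its call with each probe set on its own (0.67, adjusted p = 0.0664), with the replicate block (0.67, adjusted p = 0.151) and at an adjusted p below 0.01 (0.67, adjusted p = 0.0318). Without any 1 array 0 genes of the whole table passed in limma (3496 to 4546 at an unadjusted p below 0.05), so counts there were 0 to 0 for members, their probe sets and all lists.

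Member calls were 2 (MYC and MXD1) after median centring, after cyclic loess and with the mean of all probe sets. Over all genes 9.51%, 10.6% and 6.12% passed in these settings. Calls were 3 with trend and robust priors (MYCL added), where 19.9% of all genes passed. They were 3 of the 6 members at or above the median level (MGA added), where 40.3% of the genes kept passed. Among genes whose mean was 5 or more they were 2 of 5 members (MYC and MXD1), where 47% of the genes kept passed. Calls were 0 with each probe set on its own, with the replicate block and at an adjusted p below 0.01. Probe set calls among members, 0 as deposited, were 3 after median centring, 2 after cyclic loess, 3 with trend and robust priors, 4 among the brighter part of the probe sets and 3 among those of at least 5. MNT turned to 0.0016 with the mean of its probe sets. Of the remaining settings of single members and MXI1, 83 left the call as it was, 8 gained one and 7 lost one (MXI1).

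Calls over the 7 lists of partners and targets, 22 as deposited, were 36 after cyclic loess, 66 with trend and robust priors, 64 and 66 under the level filters, 8 at 1.5-fold or more, 1 with each probe set on its own and 0 with the block and at 0.01. Rises among activated targets, 15 as deposited, were 24 after cyclic loess, 33 with trend and robust priors, 30 under each level filter, 7 at 1.5-fold or more and 0 with each probe set on its own, with the block and at 0.01, and falls were 1 (HK2) after both scalings, with trend and robust priors and under both filters. Calls among repressed targets, 1 as deposited, were 3 after each scaling, 11 with trend and robust priors and under both filters, 2 with the mean of probe sets and 0 with the block and at 0.01. Over all genes calls were 1242 as deposited, 1880 after median centring, 2096 after cyclic loess, 3935 with trend and robust priors, 3984 and 3939 under the filters, 1210 with the mean of probe sets and 0 with the block. Fewer genes enter under the filters; the other causes were not tested.

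Shared replicate numbers were not found to pair the arrays: deviations of same-numbered arrays correlated at -0.113 across probe sets. With the numbers crossed, an alternative chosen after seeing the data, 0 members passed in the block.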

Other observations

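The 3 probe sets annotated to both MIR4800 and MXD4 were assigned to neither gene. The brightest read 6.12 and 5.98 on the arrays labelled LLGL1 shRNA, against 5.79 and 5.59 on the control arrays (log2 difference 0.36, limma adjusted p = 0.183). The next read 4.86 and 4.98 against 4.75 and 4.84 on the control arrays (0.13), and the dimmest read 4.05 and 3.72 against 4.15 and 4.18 on the control arrays (-0.28). They differed in sign and none passed.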
